A study of Mus musculus with 8 samples.

Results

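Stable intermediate tiles are 1-kb stretches of the mouse autosomes whose DNA methylation lay near the middle of the scale, at about the same level, in B and T cells of both sexes. They were taken from whole genome oxidative bisulfite sequencing (WGoxBS) of C57BL/6J spleen cells, namely resting B cells (CD43-) and naive T cells (CD4+), from mice aged 6 to 8 weeks with no genetic change or treatment in any group. The oxidation step lets 5-hydroxymethylcytosine read as unmethylated, so that the signal is 5-methylcytosine. A tile was tested where it held 10 or more CpGs listed in the files of all 4 groups (B and T cells of females and of males) and 50 or more reads at those CpGs in each. It was a member where the level, the share of reads called methylated summed over its CpGs, was 35% to 65% in every group and the range over the groups was under 10 percentage points. Of 646785 tested tiles, 17746 (2.74%) had 35% to 65% in every group and 9638 (1.49%) also met the limit on the range. Members were thus selected on these measured levels, which are given as a description only.

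Most CpGs of a mammalian genome are methylated, and CpG-rich promoters and enhancers of active genes are kept free of methylation, so that intermediate levels are uncommon. The best known stable source is genomic imprinting, in which an imprinting control region is methylated on the chromosome from the mother or from the father in every cell, and the genes around it are expressed from a parental allele. A tile that straddles the edge of an unmethylated region also averages to an intermediate level, although each of its CpGs may be nearly fully methylated or nearly free of methylation. The spread of levels over the CpGs of a tile, which the choice of members did not use, bears on both patterns. The files give reads per CpG without alleles or cells, so methylation of a single allele in every cell and methylation of both alleles in a part of the cells cannot be told apart.

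The labels list 8 samples in 4 groups of 2, made from pooled mice, and 1 file per group. Whether a file joins both samples is not stated. Each group was therefore 1 library with no replicate error of its own. Where 4 levels of a tile stand together below, females come before males and, within a sex, B before T cells. The libraries held 280919817 to 354634149 reads at CpGs, and the median was 14 reads per autosomal CpG in male B cells and 16 or 17 in the other libraries. The reads of a tile are depths summed over its CpGs, so a read that covers several CpGs counts several times. The 95% Wilson intervals given here cover counting error only and take these counts as independent. Since neighboring CpGs share reads and reads carry no molecular identifiers, the intervals are too narrow even for counting error. The promoters of 6 of 6 B cell markers were lower in B cells and those of 6 of 6 T cell markers were lower in T cells, with medians of 16.6% to 18.4% and 3.33% to 4.53% in the cell type they mark. Over all tested tiles the median level was 90.7% to 91.9%, 83.5% of tiles were over 65% in every library and 6.13% were under 35%.

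The windows below show what the spread over CpGs looks like along the DNA. They are plus-strand reference sequence of GRCm38 (mm10), 5′ to 3′, with each CpG in capitals, from stretches that are not repeat-masked and lie outside annotated exons. The first 5 come from members in imprinted domains whose CpGs differed little in level, and they are shown because they carry the evenly intermediate pattern.
Gnas, chr2:174285631-174285830: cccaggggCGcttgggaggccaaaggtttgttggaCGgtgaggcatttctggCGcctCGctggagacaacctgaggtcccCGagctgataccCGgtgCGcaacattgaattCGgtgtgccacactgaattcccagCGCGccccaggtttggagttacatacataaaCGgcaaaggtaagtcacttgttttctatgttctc
H19, chr7:142580201-142580400: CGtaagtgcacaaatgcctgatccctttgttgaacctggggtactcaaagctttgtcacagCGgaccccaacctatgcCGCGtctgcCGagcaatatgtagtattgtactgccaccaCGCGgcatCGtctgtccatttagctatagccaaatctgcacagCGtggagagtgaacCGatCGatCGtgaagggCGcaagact
Mest, chr6:30737051-30737250: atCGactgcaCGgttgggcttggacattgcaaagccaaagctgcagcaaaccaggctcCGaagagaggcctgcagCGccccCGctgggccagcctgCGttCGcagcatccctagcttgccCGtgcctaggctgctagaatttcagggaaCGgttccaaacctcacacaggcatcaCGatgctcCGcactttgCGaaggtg
Peg13, chr15:72810531-72810730: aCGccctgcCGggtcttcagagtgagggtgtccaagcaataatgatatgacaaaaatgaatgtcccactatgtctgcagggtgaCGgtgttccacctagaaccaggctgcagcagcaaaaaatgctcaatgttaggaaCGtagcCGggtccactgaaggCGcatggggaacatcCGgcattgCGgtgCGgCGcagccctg
Zdbf2, chr1:63260001-63260200: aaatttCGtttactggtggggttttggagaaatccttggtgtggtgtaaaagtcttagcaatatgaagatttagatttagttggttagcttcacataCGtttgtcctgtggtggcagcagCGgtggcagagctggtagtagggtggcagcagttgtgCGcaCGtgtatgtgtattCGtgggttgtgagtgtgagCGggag
The next 3 come from uniform members outside the listed domains, 1 of them upstream of the imprinted gene Rasgrf1.
Rasgrf1 upstream, chr9:89878561-89878760: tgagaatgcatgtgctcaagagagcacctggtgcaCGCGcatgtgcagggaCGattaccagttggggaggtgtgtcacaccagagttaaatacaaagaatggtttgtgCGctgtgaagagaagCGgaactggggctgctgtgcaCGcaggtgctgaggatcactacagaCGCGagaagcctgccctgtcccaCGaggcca
Dancr, chr5:74126461-74126660: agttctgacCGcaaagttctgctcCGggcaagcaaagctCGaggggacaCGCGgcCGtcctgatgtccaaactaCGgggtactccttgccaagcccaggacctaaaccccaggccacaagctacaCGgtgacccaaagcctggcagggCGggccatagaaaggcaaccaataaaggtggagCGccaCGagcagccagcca
4930471E19Rik, chr10:120694571-120694770: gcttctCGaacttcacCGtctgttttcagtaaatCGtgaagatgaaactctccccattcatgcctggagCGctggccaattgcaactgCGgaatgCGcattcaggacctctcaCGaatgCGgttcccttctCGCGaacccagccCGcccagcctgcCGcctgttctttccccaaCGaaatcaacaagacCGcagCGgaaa
The last 2 hold a step, and were chosen for it among members that contain both a low and a high stretch of CpGs.
Gm44302, chr15:79467131-79467430: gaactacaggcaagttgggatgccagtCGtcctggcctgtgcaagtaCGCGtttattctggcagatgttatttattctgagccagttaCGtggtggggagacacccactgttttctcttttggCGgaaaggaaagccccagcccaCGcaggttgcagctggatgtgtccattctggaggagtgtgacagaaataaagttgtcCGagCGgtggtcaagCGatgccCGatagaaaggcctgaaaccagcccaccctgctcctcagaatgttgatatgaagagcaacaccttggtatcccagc
Cacna1i, chr15:80289331-80289630: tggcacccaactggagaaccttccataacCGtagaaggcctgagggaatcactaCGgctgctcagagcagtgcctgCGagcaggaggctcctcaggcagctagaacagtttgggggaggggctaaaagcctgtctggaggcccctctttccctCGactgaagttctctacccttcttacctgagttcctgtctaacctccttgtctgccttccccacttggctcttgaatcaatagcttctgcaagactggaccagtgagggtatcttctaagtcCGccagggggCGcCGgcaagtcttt

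In the H19 window the 13 CpGs had means over the 4 libraries of 44.0% to 55.1%, and in the Mest window the 12 CpGs had 44.7% to 51.6%. Those of the Gnas window lay between 42.2% and 60.9%, of the Peg13 window between 36.5% and 48.3%, and of the Zdbf2 window between 33.8% and 56.0%. The windows outside the listed domains were alike, with 36.2% to 57.0% upstream of Rasgrf1, 35.3% to 50.2% near Dancr and 26.7% to 54.6% in 4930471E19Rik. These are means over libraries, and the windows did not all keep to the range that their whole tiles met. Male B cells had 60.6% in the H19 window beside 47.4% to 48.7% in the other libraries, and 60.2% in the Mest window beside 42.0% to 45.2%. They were also highest in the Peg13 window, with 55.1% beside 35.4% to 42.2%, and in the Dancr window, with 58.4% beside 39.2% to 42.5%. No CpG of these 8 windows had a mean nearly free of methylation or nearly full.

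The step windows were different. In the Gm44302 window the first 6 CpGs had mean levels of 0% to 5.55% and the last 4 had 95.5% to 98.1%. In the Cacna1i window the first 3 CpGs had 95%, 95.2% and 74.7%, and each of the 4 CpGs after them was at 0% in every library. The whole tiles nonetheless passed as intermediate: the Gm44302 tile had 44.4%, 51.5%, 47.5% and 42.4% (females first, B before T), and the Cacna1i tile had 46.0%, 38.2%, 39.6% and 41.5%.

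Members were sorted into 3 classes by place. A member counted as imprinted within 10 kb of the span of the listed genes of 22 imprinted domains, which hold 74 genes. A border member lay outside those domains and had 1 flank (the CpGs within 2 kb on a side) under 20% and the other at 20% or more. There were 73 imprinted members (0.757% of members, where 0.434% of all tested tiles lie in the domains), 1473 border members (15.3%, with 5.85% of all tested tiles) and 8092 members elsewhere (84.0%, with 93.7% of all tested tiles). Among the members elsewhere, 5490 had both flanks at 65% or more (57% of members, below the 77.9% of all tested tiles in that class). Another 2516 had flanks of intermediate or mixed levels (26.1%, above the 13% of all tested tiles). The remaining ones were 32 with both flanks under 20% (0.332%, with 0.594% of all tested tiles) and 54 that lacked a measured flank (0.56%, with 2.19%). The placing of a border rests on measured flanks, and the counts of each class are a description.

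The spread over CpGs set a part of the imprinted members apart. The excess SD is the SD over the CpGs of a tile after the counting variance expected at their read numbers is taken away, in percentage points and averaged over the libraries. That counting variance takes the CpGs as independent, although a read can cover several of them. The median excess SD was 31.6 points over all members (quartiles 25.9 and 36.5), 31.6 at borders, 31.6 elsewhere and 19.8 in imprinted domains (quartiles 6.37 and 31.7), where counting alone gives an SD of about 12.2. A tile under 10 points was called uniform and a tile of 25 points or more patchy. Of the 73 imprinted members, 24 (32.9%) were uniform, beside 5 (0.339%) at borders and 23 (0.284%) elsewhere. Patchy tiles made up 7521 members (78.0%), and 35 (47.9%) of those in imprinted domains. Of the intermediate tiles that did not meet the limit on the range, 83.1% were patchy.

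**Figure D1:**
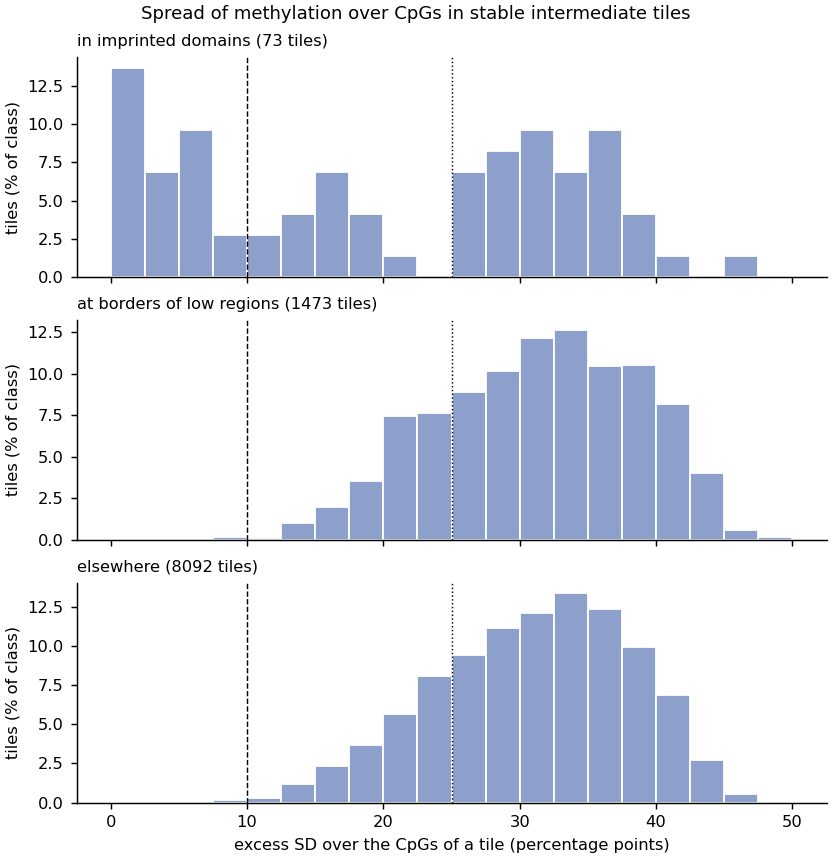
Histograms of the excess SD over the CpGs of a tile (percentage points, bins of 2.5) as a percent of the members of each class, with dashed and dotted lines at the limits for uniform and patchy tiles. Of the 73 imprinted members 24 lie below 10 points, where the 1473 border members have 5 and the 8092 members elsewhere have 23.

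The same was asked with a chi-square test of methylated and unmethylated reads over the CpGs of a tile, in each library, with Benjamini-Hochberg adjustment over all 68304 tiles whose level was 20% to 80% in every library. A tile was called heterogeneous where the adjusted p was under 0.05 in all 4 libraries. This was so for 9465 of 9638 members (98.2%), beside 96.5% of all tiles tested in this way, so the members as a whole were close to that background. Of the imprinted members 46 of 73 (63.0%) were called, of the border members 1442 of 1473 (97.9%) and of those elsewhere 7977 of 8092 (98.6%). None of the 52 uniform members was called, but the test and the excess SD use the same variance. The test compares the CpGs of a library with each other, not the cell types or sexes, and takes their reads as independent although a read can cover several CpGs, so that its p-values are approximate.

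Pooling all CpGs of the members, 23.1% were under 20%, 23.9% lay between 35% and 65% and 28.4% were over 80%. Thus fewer than 1 in 4 CpGs of an intermediate tile were themselves at an intermediate level. A stretch of 5 neighboring CpGs averaging under 20% was present in 47.2% of members and a stretch over 80% in 54.3%, and 3218 members (33.4%) held both. In the uniform imprinted members 0% of CpGs were under 20%, 91.9% lay between 35% and 65% and 0.199% were over 80%. Uniform tiles were set by a small spread around an intermediate level, so these shares follow largely from that choice. The pattern along a patchy tile recurred between libraries. The correlation of CpG levels between libraries, averaged over the 6 pairs of libraries, had a median of 0.913 over all members, 0.930 in the patchy ones and 0.0733 in the uniform imprinted members. It is given as a description over CpGs that share reads and position, and since patchy and uniform tiles were set by the spread over CpGs, which such a correlation needs, the contrast between them follows in part from that choice.

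**Figure D2:**
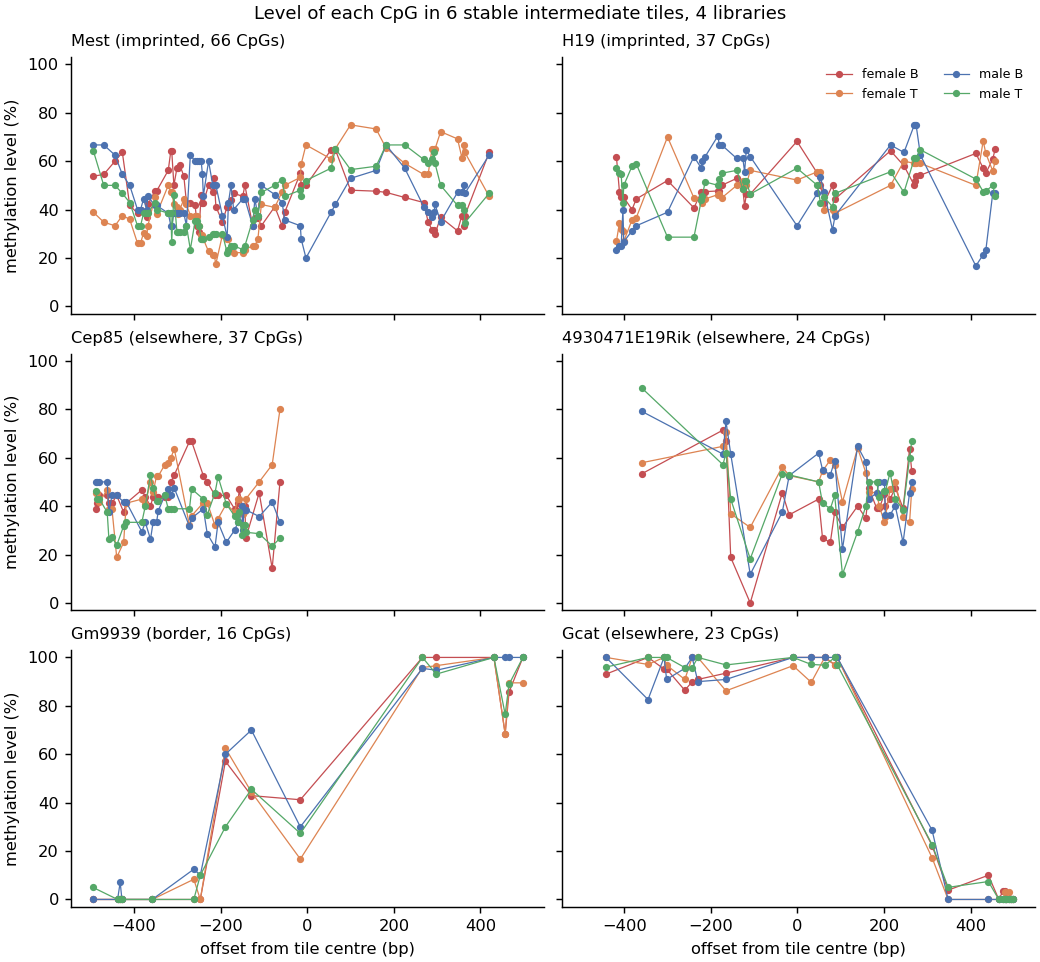
Methylation level (%) of each CpG against its offset from the tile center (bp) in 6 members, with a line per library. In the Mest, H19, Cep85 and 4930471E19Rik tiles most CpGs lie in the middle of the scale, with single CpGs as low as 0% and as high as 88.9% in a library of 4930471E19Rik, while the Gm9939 border tile and the Gcat tile switch between nearly 0% and nearly 100% at the same CpGs in all 4 libraries.

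The 24 uniform imprinted members lay in 9 domains, namely 7 in Gnas, 4 in Zdbf2, 3 in Mest, 2 each in H19, Peg13, Zrsr1 and Impact, and 1 each in Kcnq1 and Peg10. Their levels ran from 36.6% to 61.4% over all tiles and libraries, on 182 to 2272 reads per tile and library. They were CpG-dense, with a median of 40 CpGs, compared with 15 over all members and 13 over all tested tiles. Leaving out any single library raised these counts, since a rule over 3 libraries is easier to pass. The imprinted members rose from 73 to between 96 and 119, and the uniform ones among them from 24 to between 33 and 40. The highest counts came without male B cells, the shallowest library, and the lowest without female T cells.

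H19, a maternally expressed noncoding RNA, is controlled together with the growth factor gene Igf2 by a paternally methylated region upstream of it. The member at chr7:142580001-142581000, 1858 bp from H19, had 50.6% (interval 47.5% to 53.7%) in B and 47.7% (44.4% to 50.9%) in T cells of females, and 48.6% (44.6% to 52.7%) in B and 49.9% (46.7% to 53.2%) in T cells of males, with 37 CpGs and an excess SD of 3.96 points. The 4 intervals overlap. A second uniform member of the domain, at chr7:142654001-142655000 in an exon of Gm49394, had 43.5%, 43.5%, 50.9% and 45.3% in the usual order, and its neighbors on both sides were members with an excess SD of 15.1 and 15.2.

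Mest, a paternally expressed gene of the hydrolase fold family, is methylated at its promoter on the maternal allele. All 3 members of its domain were uniform and adjoined each other, from chr6:30736001 to chr6:30739000. The densest, with 66 CpGs, had 44.8%, 42.6%, 44.5% and 42.5% (females first, B before T), a range of 2.31 points, and an excess SD of 3.66. The other two had 44.1%, 49.6%, 47.0% and 42.3%, and 46.0%, 43.8%, 48.3% and 44.0%. No library was highest in all 3 tiles.

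Gnas encodes the stimulatory G protein alpha subunit and has several promoters with methylation of opposite parental origin. All 7 members of the domain were uniform, in 3 groups of tiles at chr2:174285001-174287000, chr2:174295001-174300000 and chr2:174326001-174327000. The tile with 75 CpGs, in the second group, had 48.4%, 39.9%, 43.3% and 46.6% (females first, B before T). The tile with 62 CpGs in the first group, near the lower-coordinate end of the domain, had 46.9% (44.1% to 49.7%), 51.2% (48.5% to 54.0%), 51.7% (48.2% to 55.2%) and 48.0% (45.4% to 50.5%), with an excess SD of 0.537. The second group was also the longest imprinted run of members, 5 kb with 4 members, and its median excess SD was 1.80. Of the 14 intermediate tiles in the Gnas domain 12 were uniform, and the range limit left out 5 of them.

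The remaining domains were as follows. Zdbf2, a paternally expressed gene active in the pituitary and brain, has a paternally methylated region upstream, and its 4 members had 38.8% to 61.4%. Peg13, a noncoding RNA inside an intron of Trappc9, had 2 uniform members with 44.2%, 51.6%, 47.1% and 46.3%, and 45.2%, 39.6%, 48.2% and 46.2%. The 2 tiles at Zrsr1, a splicing factor gene inside Commd1, had 41.8% to 50%, with 73 CpGs in the denser of them. In Impact, which encodes a regulator of translation, the tile with 72 CpGs had 37.5%, 36.6%, 37.5% and 44.8%, the lowest of the uniform imprinted tiles, and male T cells stood above the other 3 libraries. The Kcnq1 tile had 42.6%, 44.3%, 50.5% and 47.8%, and the tile at the promoter of Peg10, a gene derived from a retrotransposon that the placenta needs, had 42.8%, 40.5%, 47.8% and 48.1%.

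**Figure D3:**
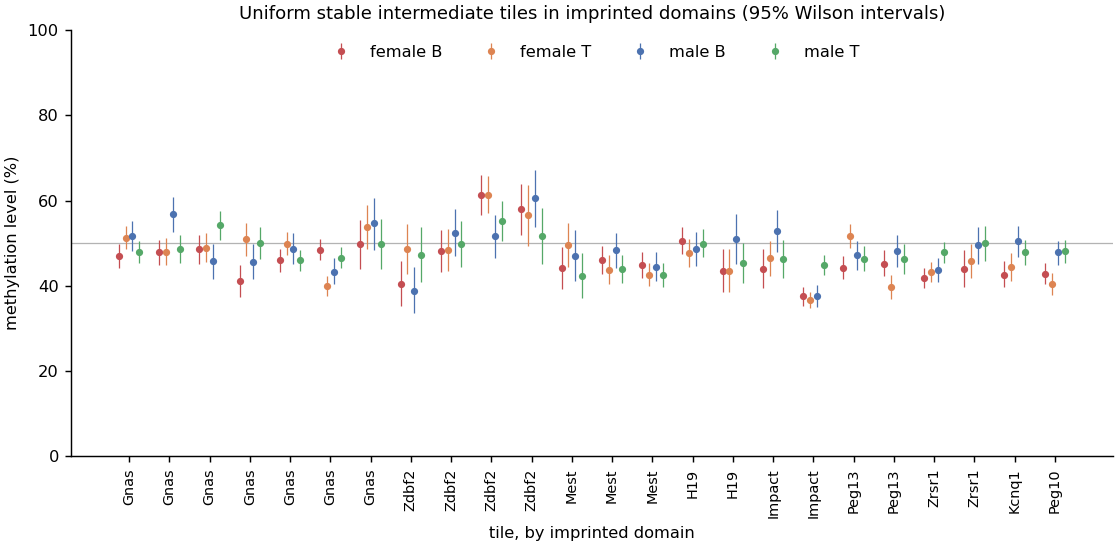
Methylation level (%) of the 24 uniform imprinted members in the B and T cells of females and males with 95% Wilson intervals, grouped along the x axis by domain. All levels lie between 36.6% and 61.4%, and the libraries take no common order over the tiles.

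The range limit removed many even tiles. Over the 22 domains 155 of 2808 tested tiles were intermediate in every library, and 56 of these were uniform, 24 members and 32 with a range of 10 points or more. With the latter counted, 17 of the 22 domains held a uniform intermediate tile. Peg3, a zinc finger gene that affects growth, had 4 uniform tiles, and all of them exceeded the limit, with ranges of 10.2 to 14.8 points. One tile at Nnat, a paternally expressed gene inside Blcap, had 44.7%, 36.6%, 59.0% and 54.9%, a range of 22.4, with both male libraries above both female ones. The tile with 100 CpGs in Grb10, a growth inhibitor, had 47.3%, 48.2%, 42.2% and 35.7%. Its male T cell value was the lowest. The tile in Igf2r, the receptor that clears Igf2, had 59.5%, 50.5%, 59.5% and 44.2%, higher in B than in T cells of either sex. These differences rest on 1 library per group and were not tested.

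**Figure D4:**
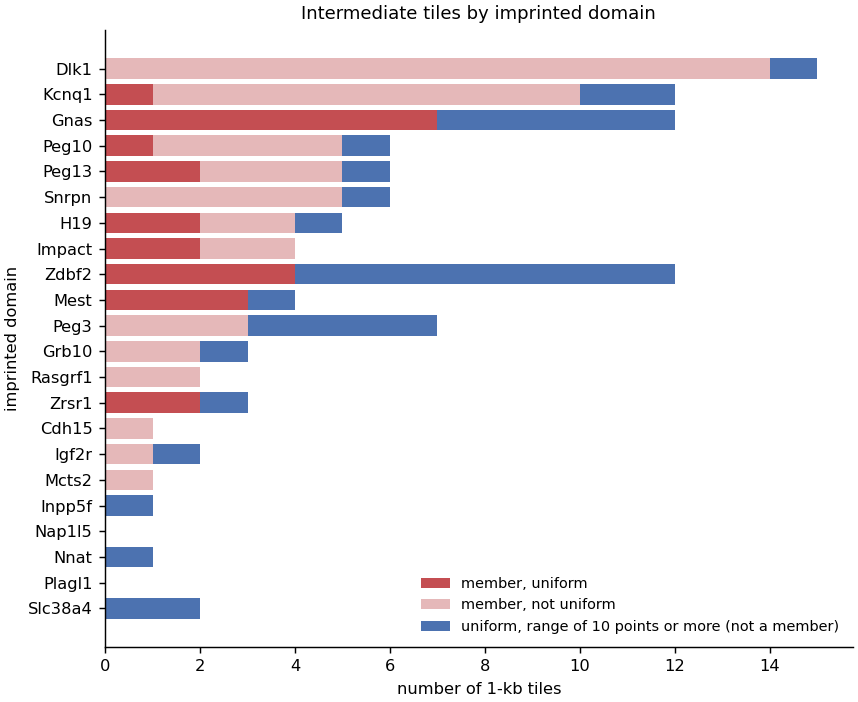
Number of 1-kb tiles in each of the 22 imprinted domains that were uniform members, members that were not uniform, or uniform tiles left out by the range limit of 10 points. Gnas and Zdbf2 have 12 uniform intermediate tiles each, whereas Dlk1 has the most members, 14, and none of them uniform.

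The other 49 imprinted members were not uniform, and 35 of them were patchy. Dlk1, which encodes a Notch-related growth regulator, heads the domain with the most members, 14, of which 11 were patchy. Its members with the lowest spread lay in and beside the noncoding RNA gene Meg3 and at Dlk1 itself. The tile at Gm27596 had 53.9%, 50.8%, 50.1% and 50.6% with an excess SD of 10.3, just outside the limit for uniform tiles, and the tile in Meg3 had 62.4%, 61.7%, 58.2% and 58.0% with 14.6. The tile at an exon of Dlk1, with 41 CpGs, had 43.7%, 41.4%, 38.7% and 42.9% with 15. By contrast the tile at Gm27528 had 49.0%, 39.1%, 46.4% and 45.3% with an excess SD of 37.4. Within Kcnq1, 10 members included 7 patchy ones, and the tile with 113 CpGs at Cdkn1c, a cell cycle inhibitor, had 35.9%, 45.3%, 37.7% and 38.6% with an excess SD of 12.1. At Mkrn3, in the Snrpn domain, the tile with 50 CpGs had 52.3%, 49.5%, 46.3% and 50.3%, but it contained a stretch of 5 CpGs at 19% and another at 90.2%. The Mcts2 member in an intron of H13 lay beside a flank of 0.664% and ran from a low stretch of 15.5% to a high one of 92.5%.

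Border members had the shape that their class implies. The side of the tile facing the low flank was the lower in 1276 of 1469 tiles (86.9%), with a median of 36.0% on that side and 78.1% on the other. The side facing the lower flank was the lower in 68.9% of all members and in 61.8% of the members with both flanks high. From the side of the low flank the median rose from 4.05% in the bin next to the tile to 35.4% and 77.8% within it and 87.2% beyond it. On the far side of the low region, 2.75 kb from the tile center, the median was back at 67.0%. Protein-coding promoters, taken as 1 kb on either side of a gene start, were touched by 691 border members (46.9%), and by 5.81% of all tested tiles.

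The 5 border members with the largest difference between flanks lay at Gm9939, Carf, Hdlbp, Gen1 and Mllt10. The Gm9939 tile had 46.2%, 53.3%, 52.4% and 49.8% (females first, B before T) between flanks of 0.796% and 97.6%, and the means of its sides were 14.5% and 93.4%. At Hdlbp, an RNA-binding protein gene, the 4 levels were 44.0%, 43.2%, 43.3% and 43.8%, a range of 0.860 points, although the excess SD was 44.6. At Gen1, a resolvase of DNA repair, they were 50.9%, 48.2%, 50.9% and 42.3%. Mllt10, a partner in leukemia fusions, had 43.6%, 53.0%, 50.9% and 50.3%, and a low stretch of 0.333% beside a high one of 93.7%. Carf, which encodes a calcium-responsive transcription factor, had 53.8%, 55.9%, 53.8% and 58.9%, with the smallest excess SD of the 5, 33.3, and no low stretch, its lowest being 35.9% and its highest 87.0%. At Hdlbp the CpG levels had a correlation of 0.967 between libraries.

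**Figure D5:**
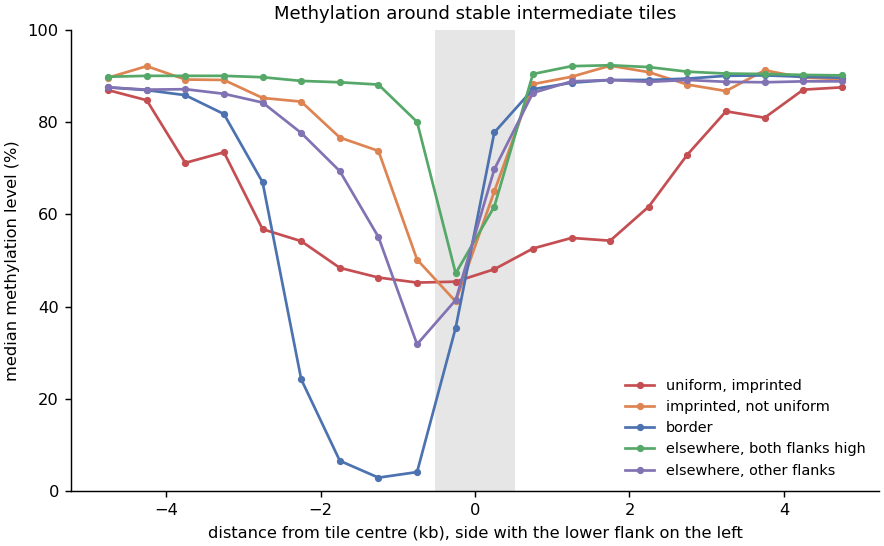
Median methylation level (%) in bins of 500 bp against distance from the tile center (kb), with the side of the lower flank on the left and the tile shaded, for 5 sets of members. Around uniform imprinted tiles the level stays between 45.2% and 54.9% for more than 1 kb on each side, whereas border tiles fall to 2.84% on the left and tiles with high flanks dip mainly within the tile.

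The members with both flanks high were the most numerous, 57% of members, although 77.9% of all tested tiles fall in that class. Around these 5490 members the median was 88.2% at 1.25 kb on the lower side, 47.2% and 61.7% within the tile and 92.2% at 1.25 kb on the other side. Their median excess SD was 31.7 points, 79.0% were patchy, and 44.9% held a stretch of 5 CpGs under 20%. Of their CpGs 22.4% were under 20% and 29.3% over 80%. They lay between genes in 45.2% of cases (35% of all tested tiles), in introns in 33.6% (36.6%) and in exons in 17.9% (22.6%), and 3.30% touched a promoter (5.81%).

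Among all members elsewhere with 20 or more CpGs, 5 were taken for the largest excess SD, of which those in Magi2 and at Gm31641 had both flanks high and the other three a flank between 20% and 65% on a side. At Gcat, an enzyme of threonine breakdown, the tile had 56.8%, 55%, 60.7% and 60.5% (females first, B before T), a stretch at 0.493% and another at 98.5%. In Magi2, a scaffold protein gene, it had 46.7%, 55.7%, 47.6% and 54.9%, higher in T than in B cells of both sexes, with sides at 2.87% and 94.8%. Prkcz, an atypical protein kinase C, had 45.8%, 38.0%, 39.7% and 41.0% with stretches at 0.611% and 96.6%. D030055H07Rik and Gm31641 had excess SDs of 46.1 and 45.5. The profiles were alike in all libraries, with a correlation over CpGs of 0.990 to 0.995 in these 5 tiles. These genes are named by their spread, not by function.

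Members rarely joined into longer stretches. With members at most 1 kb apart joined, there were 9143 runs, of which 8689 (95%) were a single tile, 418 held 2 members and 36 held 3 or more. The longest runs outside imprinted domains were 5 kb, near Igsf21 and at Ankrd13a, Epha8, Gm43782 and Fignl2. None of their tiles was uniform, and their median excess SD ran from 20.7 to 30.3 points. The Gnas run of the same length had 1.80.

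There were 28 uniform members outside the listed domains (0.293% of the members there). That number depends on the limits: it was 5 with uniform set at under 5 points, 168 at under 15 points and 72 with tiles of 5 CpGs and 20 reads, where the imprinted ones numbered 15, 29 and 26. The 28 were named after their values were seen, except for those elsewhere with 20 or more CpGs, which a rule on the spread had fixed. Of the 28, 3 lie 28.9, 30.9 and 31.9 kb upstream of Rasgrf1, beyond the 10-kb margin of its domain. Rasgrf1 encodes a neuronal exchange factor and is known to have a paternally methylated control region upstream. The tile at chr9:89878001-89879000 had 44.9%, 45.1%, 52.5% and 54.4% (females first, B before T), with an excess SD of 0, and both male libraries were above both female ones. The other 2 had 63.5%, 58.9%, 54.2% and 57.8%, and 55.8%, 50.6%, 59.1% and 52.9%. Both male libraries were below both female ones in the former, and the latter had neither order. Another tile, 27.9 kb upstream, was uniform with a range of 11.6. The 2 members inside the Rasgrf1 gene span were patchy, 1 of them with an excess SD of 34.7.

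The other 25 uniform members had no listed imprinted gene within 50 kb. At chr5:74126001-74127000, 30595 bp from the noncoding RNA gene Dancr, 35 CpGs had 51.8% (48.2% to 55.5%), 54.3% (51.0% to 57.6%), 55.8% (51.2% to 60.3%) and 47.0% (43.7% to 50.3%) (females first, B before T), an excess SD of 6.95, and flanks of 94.0% and 95.2%. In an intron of 4930471E19Rik at chr10:120694001-120695000 the 24 CpGs had 42.1%, 48.9%, 50% and 46.9% with an excess SD of 6.71 between flanks of 83.8% and 91.9%. Rap1gap, which encodes a GTPase activator for Rap1, had 47.1%, 50.6%, 45.7% and 49.5% in an exon. Vill, a villin-like gene, had 60.1%, 60.9%, 59.0% and 64.0%, and Hnf1aos1 had 61.0%, 64.8%, 57.8% and 55.8%. Gm37267 had 50.1%, 50.5%, 44.3% and 53.9%. At Scn8a, a sodium channel gene, 47 CpGs had 52.9%, 56.7%, 58.2% and 57.7%, but with an excess SD of 10.3 that tile just missed the limit.

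As a set, the 28 uniform members outside the domains, those upstream of Rasgrf1 included, had a larger excess SD than the imprinted ones. Their median excess SD was 8.38 points, compared with 3.63 in the 24 uniform imprinted members. Single tiles overlapped: those at Cep85 and chr9:89878001-89879000 had 0, while the imprinted Gnas tile at chr2:174298001-174299000 had 8.09. Of the CpGs of the 28 tiles, 74.3% lay between 35% and 65%. Their median correlation over CpGs between libraries was 0.448, and both values follow the spread. The 28 tiles held a median of 17 CpGs, where the uniform imprinted members held 40, so the contrast in excess SD was not separated from CpG number. Of these tiles 2 had long copies found by a search in which repeat-masked bases could not start a match. The tile in Cep85 had 44.4%, 43.0%, 36.9% and 36.7%, and the tile at Gm45104 had 41.3%, 48.2%, 41.2% and 41.7%. Their longest other matches in the genome at 90% identity or more reached 1007 bp and 716 bp. Matches of any length numbered 63 for Cep85 and 2 for Gm45104. In Cep85 the listed CpGs lay on a single side of the tile, and its B and T cell levels of each sex were closer to each other than the sexes were. This tile also lies inside an endogenous retrovirus that the study reports, from bisulfite pyrosequencing, as variably methylated between individuals. None of the 24 uniform imprinted tiles had a match of 200 bp or more. The median repeat-masked share was 6.7% in these and 18.5% in the 28 tiles outside. Copies of masked repeats could be missed, so the counts are not of all copies. Reads placed at the wrong copy can mix levels, and their part in these values was not tested. At Pink1, a mitochondrial kinase gene, a border tile had 59.2%, 59.3%, 58.0% and 62.4% with an excess SD of 0.471, and 89.3% of its bases were repeat-masked.

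The letters TGCCGC (or GCGGCA on the other strand) are the core that ZFP57, a zinc finger protein that keeps methylation at imprinting control regions, is known to recognize. They were searched on both strands of each tile, with no other motif. They occurred in 12 of the 24 uniform imprinted members, in 3 of the 28 uniform members outside and in 13.9% of all tested tiles, but such letters come with CpG number. Among tiles of 40 CpGs or more, 8 of 12 uniform imprinted members held them, beside 51.2% of all tested tiles. With 20 to 39 CpGs the figures were 3 of 9 and 24.7%, and with 10 to 19 CpGs 1 of 3 and 10.9%. The uniform members outside had 3 of 11 with 20 to 39 CpGs and 0 of 17 with 10 to 19 CpGs. The H19 window above holds 2 occurrences and the 4930471E19Rik window 1. A match describes the letters only.

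Over all members, 12.2% touched a protein-coding promoter, 18.3% an exon, 31.0% an intron and 38.5% none of these, where all tested tiles had 5.81%, 22.6%, 36.6% and 35%. The median GC content was 48.7%, compared with 46.5%. Depth was ordinary for most: 27 members exceeded 2 times the median reads per CpG of a library, up to a mean ratio of 28.1, and none of these was uniform or imprinted. Of the intracisternal A particles that the study lists as variably methylated between individuals (VM-IAPs), 99 are autosomal and 90 overlapped a tested tile. Members overlapped 9 of them, with 10 tiles (0.104% of members), where 172 of all tested tiles (0.0266%) overlapped one. On the study's additional list 66 loci overlapped a tested tile, with 115 tiles (0.0178% of tested tiles), and 0 a member. Overlap with a listed position is a description, since the study's screen chose the list with methylation data that include those of this series.

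By the rule the libraries could differ by less than 10 points at each member, and the medians of the differences were near 0. The median B minus T difference in level was 0.258 points in females and 0.304 in males, while females minus males gave medians of -0.0829 in B cells and -0.00478 in T cells. The limits cut through a continuous distribution. The member nearest the lower level limit, in an exon of Krt19, had 35% in male T cells, and the nearest tile outside had 34.99%. The member with the widest range, in Dapk2, had 9.99968 points, and the narrowest range outside was 10.0, in D030025E07Rik. Members with a range of 9 to 10 points numbered 1431, and intermediate tiles with 10 to 11 points numbered 1293.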

How the data were processed

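DNA methylation was measured by WGoxBS in naive CD4+ T and resting CD43- B cells of female and male mice, 8 samples in 4 groups. The authors deposited 1 file per group with, for every CpG with 5 or more reads, the methylation level as a fraction (rounded up to 3 decimals) and the read depth as a count. The submitters' processing notes name Trim Galore, FastQC, Bismark 0.13.1 and mm10. The methylation caller's settings, removal of duplicates and whether samples were joined are not given in the sources used here. Methylated reads were recovered by rounding level times depth down, which gave whole reads for 100% of levels within rounding, and 100% of autosomal positions lay on a CG of GRCm38. Every deposited value column was used.

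Tiles of 1 kb used the 18214466 autosomal CpGs listed in all 4 libraries (read depth per library in the report). Gene spans, exons and promoters came from GENCODE M21. The excess SD was the square root of the variance of CpG levels minus p(1-p)/reads averaged over CpGs, at the tile's level p, floored at 0. Heterogeneity was tested by Pearson's chi-square per library, checked on simulated data. Named tiles were, by rule, the member with most CpGs of each imprinted domain, the 5 border members with the largest flank difference, the 10 and 5 members elsewhere with 20 or more CpGs and the smallest and largest excess SD, the 5 longest runs and tiles at the limits. The uniform tiles and those with printed steps were added after their values were seen. Members and lists were chosen with earlier results of these data known. Alternatives covered the recovery of reads, the tile minimum, both limits, the grid, the weighting, each library left out, the domain margin, the flank and the depth. Copies were searched with blastn 2.17.0, with repeat-masked bases of a tile kept from starting a match. Python 3.11.15, numpy 2.4.6, pandas 2.3.3 and scipy 1.17.1 were used. No difference between cell types or sexes was tested, since each group has 1 library.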

Additional observations from a re-analysis of the deposited data

How the results depend on the processing

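Of 138 values recomputed under 21 alternatives, 91 stayed within 1.5 times the count (or, for the median excess SD, within the library SD of 0.339 points) and 47 moved. Under a minimum of 20 CpGs and 100 reads there were 2171 members (40 imprinted, 396 border, 1735 elsewhere), 2118 heterogeneous and 11 uniform outside imprinted domains, with a median excess SD of 30.7. Under 5 CpGs and 20 reads 12279 members lay elsewhere and 72 uniform ones outside the domains. A window of 40% to 60% gave 5138 members (40, 796 and 4302), 5051 heterogeneous, 11 uniform outside and a median of 32.1. A range under 5 points gave 2455 (18, 364 and 2073), 2411 heterogeneous, 6 uniform imprinted and 9 outside, and 30.9. A range under 15 points gave 14660 (128, 2264 and 12268), 14379 heterogeneous, 52 and 43 uniform, and 32.0. Unweighted means gave 15126 members, 2516 border, 12507 elsewhere, 14943 heterogeneous and 34.1. Flanks of 5 kb left 758 border members and a low flank under 10% left 897. With the limit for uniform at 5 points there were 15 imprinted and 5 others, and at 15 points 168 others.

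Without each library in turn, members numbered 13086 to 13699, imprinted 96 to 119, border 1994 to 2125, elsewhere 10996 to 11455, heterogeneous 12873 to 13506, uniform imprinted 33 to 40 and uniform outside 38 to 41, with a median excess SD of 31.5 to 31.9. A rule over 3 libraries is easier to pass than one over 4, so these counts rise by construction. Under every setting the uniform share was higher in imprinted domains (20.5% to 52.5%) than outside (0.0523% to 1.76%). The alternatives on the uniform tiles were added after seeing the data. No paired analysis was possible because the groups share no replicate numbers and each has 1 file.

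For the H19 tile, with 580 to 978 reads per library, the intervals run from 44.4% to 53.7%. The part of counting error in which tiles met the limit of 10 points was not tested. With 1 library per group, no member can be called equal between cell types or sexes.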

Other observations

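Outside the imprinted domains 26 tiles were uniform and intermediate in every library but had a range of 10 points or more, and apart from the tile 27.9 kb upstream of Rasgrf1 they are not described above. In the Nfix tile, in a gene for a nuclear factor I transcription factor, the 32 CpGs had 43.1%, 47.5%, 48.0% and 57.6% (females first, B before T). The Gpatch2 tile had 55.9%, 53.6%, 56.2% and 40%, with male T cells lowest. The Rsg1 tile had 61.4%, 56.7%, 47.1% and 53.5% with an excess SD of 0, both female libraries being above both male ones. The Art3 tile, with 41 CpGs in an exon, had 58.3%, 53.3%, 48.5% and 43.1%. The widest range was 23.9 points, at the tile near Gm22818, with 59.8%, 35.9%, 53.7% and 47.0%, higher in B than in T cells of either sex. The Camk2b tile, with 64.5%, 46.9%, 63.7% and 56.0%, was also higher in B cells, but its sequence had 143 other matches of any length in the genome. The differences between libraries were not tested.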
